A study of Homo sapiens with 3 samples.

Results

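TXNIP, the arrestin-domain genes ARRDC1, ARRDC2, ARRDC3 and ARRDC4, and the transcription factor genes MLXIP and MLX were followed in romidepsin-treated leukaemia cells. They are 7 of the 25247 named genes in the tables, picked by name. The set was selected on FPKM values of these same romidepsin and control libraries that were already known, so the differences below describe these genes and carry no test. Each of the 7 symbols had 1 row of its own, and 6 of the 7 reached 1 FPKM (a fragment count corrected for the length of the gene and the size of the library) in at least 1 library, the level needed to enter the comparison across 11708 genes. ARRDC4 did not.

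The romidepsin group was OCI-AML2 R50 cells given romidepsin for 18 h, with 2 libraries, and the control group was OCI-AML2 R50 cells labelled as control, with 1 library. OCI-AML2 is an established line of acute myeloid leukaemia (AML), and R50 cells of both groups grew in MEMα medium with 15% FBS and 50 µM Ara-C (cytarabine, the nucleoside analogue of AML chemotherapy). Romidepsin is a cyclic peptide that inhibits class I histone deacetylases. The sources used here do not give its dose or say whether the 2 libraries came from separate cultures, so their spread may be technical. As there is 1 control library, the effect of the drug and a difference from culture to culture cannot be told apart.

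TXNIP and the ARRDC proteins are the alpha-arrestins, adaptors with an arrestin fold that bring ubiquitin ligases of the NEDD4 family to membrane proteins. TXNIP differs from its relatives in that it also binds and inhibits reduced thioredoxin, and it drives the removal of glucose transporters from the cell surface. MLXIP encodes MondoA, which senses glucose 6-phosphate and, paired with MLX, activates TXNIP and ARRDC4 through carbohydrate response elements, pairs of E-box-like motifs. The gene TXNIP is also known as one of the transcripts that histone deacetylase inhibitors raise in transformed cells, with the factor NF-Y, which binds CCAAT boxes, at its promoter.

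The promoters of 4 members are printed because they hold the motifs through which MondoA with MLX and NF-Y are known to act, and because TXNIP, ARRDC3 and ARRDC1 are the members whose levels differed most between the groups. Each sequence is a RefSeq window (GRCh38.p14) of 250 bases before and 50 bases after a transcription start, read 5′ to 3′ on the gene's strand, and all 7 members had at least 1 such window. The files used another build, so the windows were matched by symbol. Capitals mark CCAAT (or ATTGG on the other strand), the E-box CACGTG, and the paired motif CACGNG, any 5 bases, CACGNG (or its reverse complement). None of the marked matches overlap.
TXNIP, upstream start (chr1:145996530-145996829, minus strand): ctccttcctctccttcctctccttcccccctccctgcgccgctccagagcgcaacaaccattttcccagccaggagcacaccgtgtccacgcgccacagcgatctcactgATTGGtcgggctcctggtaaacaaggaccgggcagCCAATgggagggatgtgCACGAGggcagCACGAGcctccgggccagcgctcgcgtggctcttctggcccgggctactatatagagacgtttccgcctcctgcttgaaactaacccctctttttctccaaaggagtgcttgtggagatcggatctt
ARRDC4 (chr15:97960453-97960752, plus strand): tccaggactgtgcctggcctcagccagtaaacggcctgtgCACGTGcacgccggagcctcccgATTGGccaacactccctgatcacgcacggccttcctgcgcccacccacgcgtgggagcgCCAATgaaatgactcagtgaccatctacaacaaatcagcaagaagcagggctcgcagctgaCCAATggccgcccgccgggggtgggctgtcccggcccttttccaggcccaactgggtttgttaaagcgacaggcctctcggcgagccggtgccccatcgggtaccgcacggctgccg
ARRDC3, upstream start (chr5:91383268-91383567, minus strand): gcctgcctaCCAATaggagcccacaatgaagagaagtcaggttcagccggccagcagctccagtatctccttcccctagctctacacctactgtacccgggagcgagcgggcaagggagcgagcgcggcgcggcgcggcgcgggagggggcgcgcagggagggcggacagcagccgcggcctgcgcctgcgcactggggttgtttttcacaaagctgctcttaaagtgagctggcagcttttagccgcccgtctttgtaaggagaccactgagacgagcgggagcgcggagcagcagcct
ARRDC1 (chr9:137605436-137605735, plus strand): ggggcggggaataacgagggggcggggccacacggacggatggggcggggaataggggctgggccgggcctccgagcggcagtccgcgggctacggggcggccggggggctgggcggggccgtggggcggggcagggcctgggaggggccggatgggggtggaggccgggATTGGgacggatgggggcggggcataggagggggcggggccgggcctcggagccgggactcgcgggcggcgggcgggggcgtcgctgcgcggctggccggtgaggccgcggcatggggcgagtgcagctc

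The paired motif was found once among the 10 windows of the members, at the upstream start of TXNIP, from base -88 to -72. It is a rare match, present in 20 of 35116 RefSeq windows of this length (0.057%). Only pairs with both boxes in the same orientation were searched, so pairs with 1 box inverted were not looked for. The same TXNIP window held CCAAT matches at -140 to -136 and -105 to -101. The ARRDC4 window had 3 CCAAT matches and 1 CACGTG, at -210 to -205. CCAAT occurred in 34.6% and CACGTG in 7.26% of all windows. MLX had 1 of each, with its CACGTG at -50 to -45. ARRDC1, ARRDC3, MLXIP and the downstream start of ARRDC2 had 1 CCAAT each. The other windows of TXNIP, ARRDC2 and ARRDC3 had no match.

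**Figure D1:**
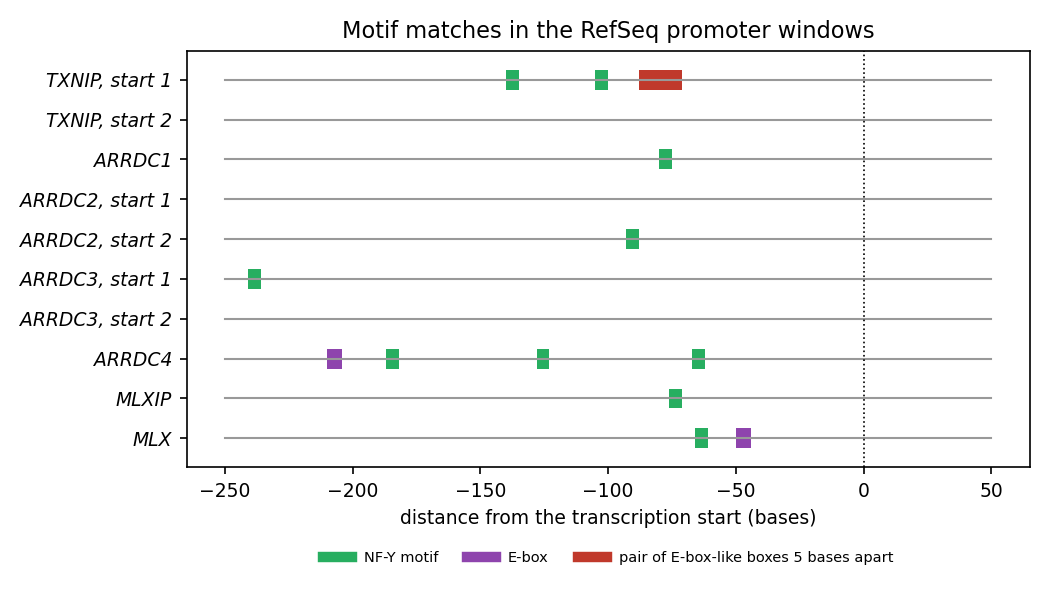
Positions of the motif matches in the 10 promoter windows of the 7 genes, as distance from the transcription start in bases; NF-Y motif stands for CCAAT on either strand. The paired boxes appear only at the upstream start of TXNIP, from -88 to -72, and every gene has an NF-Y motif in at least 1 window.

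TXNIP stood at 97.2 and 96.8 FPKM in the romidepsin libraries, against 21.1 FPKM in the control. Both treated libraries lay far above the control, at 4.61 and 4.59 times its value, and they differed from each other by little (97.0 ± 0.346 FPKM, SD, n = 2). On the log2(FPKM + 1) scale, which understates the change of low genes, the mean difference was 2.15, the 123rd highest of 11708 genes. TXNIP was above 92.9% of the tested genes in both romidepsin libraries and above 64.7% in the control.

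ARRDC3, an adaptor known for the ubiquitination of the beta-2 adrenergic receptor, was the other member with higher values after romidepsin. It was at 3.06 and 3.33 FPKM in the romidepsin libraries and at 1.47 FPKM in the control, 2.07 and 2.26 times the control. ARRDC3 has a single coding transcript of 4188 bases in GENCODE, which with the estimated depth corresponds to about 302 and 322 fragments in the romidepsin libraries and 125 in the control. Counting error alone then gives 95% exact Poisson intervals of 2.72 to 3.42 and 2.98 to 3.72 FPKM after romidepsin. For the control the interval is 1.23 to 1.76 FPKM. These intervals rest on an approximate depth and 1 transcript length and leave out differences between cultures. They are no test of a gene chosen on these values. The difference of 0.76 on the log2(FPKM + 1) scale was 0.46 with quantile normalization. ARRDC3 overlaps its antisense gene ARRDC3-AS1 over 3011 bases, and no source used here gives the strand setting of the counting, so reads of the pair cannot be told apart. ARRDC3-AS1 itself was listed at 0.125 and 0.127 FPKM after romidepsin and 0.0826 FPKM in the control.

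ARRDC1, which recruits TSG101 to bud microvesicles from the plasma membrane, was lower after romidepsin. It was at 30.9 and 29.5 FPKM in the romidepsin libraries, against 55.4 FPKM in the control, a 1.83-fold lower mean. Both treated libraries lay well below the control, and the log2 difference was -0.85. Its antisense neighbour ARRDC1-AS1, which shares 29 bases with it at the gene's end, did not show this: it was at 6.99 and 7.53 FPKM after romidepsin and 6.33 FPKM in the control.

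ARRDC2 was at 14.2 and 13.4 FPKM in the romidepsin libraries and 15.1 FPKM in the control. The control was the highest of the 3, by 0.88 to 1.68 FPKM, against a gap of 0.80 FPKM within the romidepsin pair. ARRDC4, the closest relative of TXNIP in sequence and in its response to glucose, was listed at 0 in all 3 libraries. An exact 0 in these tables cannot be read as absence, since SLC25A6, a mitochondrial carrier gene used by every cell, was at 0 in all 3 libraries too. MLXIPL, which encodes ChREBP, the liver counterpart of MondoA, was at 0.308 and 0.259 FPKM after romidepsin and listed at 0 in the control.

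The genes of the glucose-sensing factor itself moved little. MLXIP was at 11.3 and 11.5 FPKM in the romidepsin libraries and 11.8 FPKM in the control, a log2 difference of -0.05 that equalled the median of all genes (-0.05). MLX was at 27.6 and 27.2 FPKM after romidepsin and 33.2 FPKM in the control, a 1.21-fold lower mean. For ARRDC2, MLXIP and MLX the direction or size depended on the scale. With every library brought to an equal sum of FPKM (equal-sum scaling) the log2 difference was 0.11 for ARRDC2 and 0.17 for MLXIP, above 0 instead of below, and -0.04 for MLX, which was at -0.14 with quantile normalization. That scaling shifted the median of all genes by 0.21, to 0.16. Relative to the median of all genes, the 6 members stood at 2.20 (TXNIP), 0.81 (ARRDC3), 0.00 (MLXIP), -0.07 (ARRDC2), -0.22 (MLX) and -0.80 (ARRDC1) as deposited. With equal-sum scaling they stood at 2.22, 0.75, 0.01, -0.06, -0.20 and -0.78, in that order of genes.

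**Figure D2:**
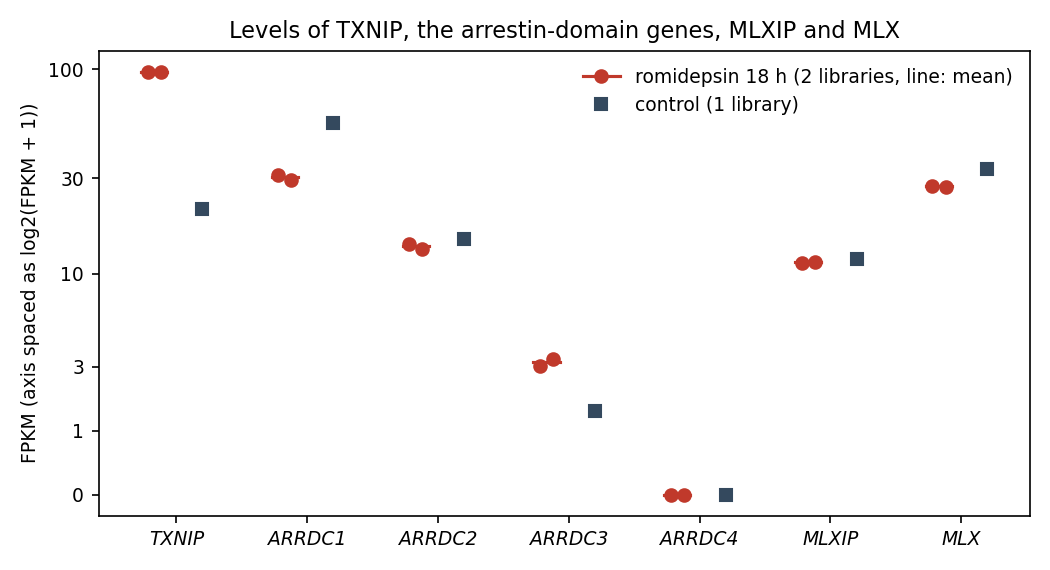
FPKM of each gene in the 2 romidepsin libraries (red circles, line at the mean) and the control library (dark squares), on an axis spaced as log2(FPKM + 1). TXNIP is at 97.2 and 96.8 FPKM after romidepsin against 21.1 FPKM in the control, ARRDC1 is lower in both treated libraries, and ARRDC4 is at 0 throughout.

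The most abundant alpha-arrestin transcript per length was TXNIP after romidepsin and ARRDC1 in the control. In FPKM, TXNIP made up 66.9% and 67.6% of the summed level of the 5 alpha-arrestin members in the romidepsin libraries and 22.7% in the control. ARRDC1 made up 21.3% and 20.7% after romidepsin and 59.5% in the control. The sum itself was 145 and 143 FPKM after romidepsin and 93.0 FPKM in the control. ARRDC4 entered the shares, this sum and the order that follows at its listed 0, which cannot be read as absence. The order of all 7 levels was TXNIP, ARRDC1, MLX, ARRDC2, MLXIP, ARRDC3 and ARRDC4 in both romidepsin libraries. In the control it was ARRDC1, MLX, TXNIP, ARRDC2, MLXIP, ARRDC3 and ARRDC4. Neighbours in the romidepsin order had ranges that did not overlap between the 2 libraries; the closest by the ratio of their means were ARRDC1 (30.2 ± 0.970 FPKM) and MLX (27.4 ± 0.270 FPKM), then ARRDC2 (13.8 ± 0.565 FPKM) and MLXIP (11.4 ± 0.185 FPKM; SD, n = 2 each). The single control library gives no spread for its order.

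Among all 11708 genes, 7.43% were at least 2-fold higher in both romidepsin libraries on the log2(FPKM + 1) scale and 3.08% at least 2-fold lower. Of the 6 members measured there, 1 (TXNIP) met the first rule and 0 the second; ARRDC3 lay under 2-fold on this scale and over it with a pseudocount of 0.1. By limma with an adjusted p under 0.05, 34.7% of all genes were called higher and 41.8% lower. Of the 6 members, 2 were called higher (TXNIP and ARRDC3), 2 lower (ARRDC1 and MLX), and ARRDC2 and MLXIP were not called. Since the members were chosen on this contrast, nothing is read from these counts.

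**Figure D3:**
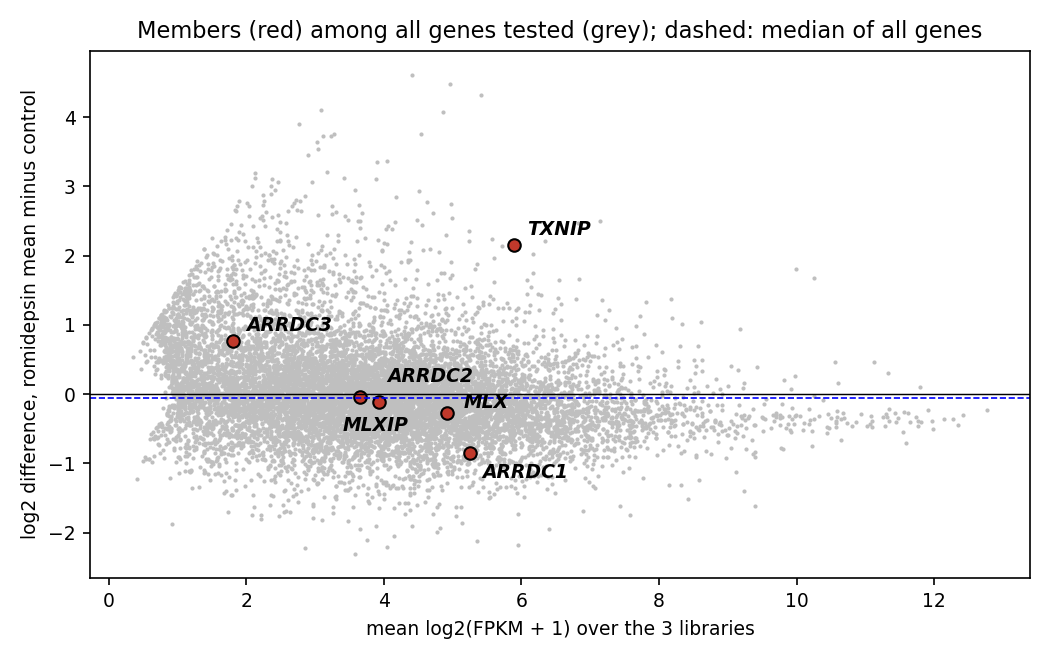
Difference of log2(FPKM + 1), romidepsin mean minus control, against the mean log2(FPKM + 1) over the 3 libraries, for 11708 genes (grey) and 6 members (red); the dashed line is the median of all genes at -0.05. TXNIP stands at 2.15 and ARRDC3 at 0.76, MLXIP, ARRDC2 and MLX lie near the median, and ARRDC1 is at -0.85.

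The genes whose pattern came nearest to that of TXNIP were GPR84, ANXA1, FCER2, BCL2A1 and TNFSF9. They had the smallest Euclidean distances to TXNIP (0.019 to 0.071) over the log2(FPKM + 1) differences of the 2 romidepsin libraries from the control. The search covered 9988 genes of at least 1 FPKM in the control, each in 1 row naming only that gene, with the members left out. ANXA1, which encodes annexin A1, was close in level too, at 93.0 and 94.9 FPKM after romidepsin and 20.4 FPKM in the control. GPR84, a receptor for medium-chain fatty acids, was at 86.0 and 84.2 FPKM after romidepsin and 18.5 FPKM in the control. With 3 libraries many genes share such a pattern, and with a pseudocount of 0.1 the nearest 5 kept 3 of these genes (GPR84, ANXA1 and TNFSF9).

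The other genes of the pathway were taken from 9 lists of 52 genes in all, of which 39 were tested. By limma with Benjamini-Hochberg adjustment over the 11708 genes, 16 of the 39 rose and 14 fell, with a median log2 difference of -0.08, against -0.05 over all genes, of which 34.7% were called higher and 41.8% lower. Equal-sum scaling gave 21 higher and 9 lower, beside 5738 of all 11734 genes tested there called higher and 3061 lower. Of the 30 calls, 25 held with equal-sum scaling, 25 with quantile normalization and 23 with both. The size of the difference changed by over 1.5 times for 19 of the 30 with equal-sum scaling and for 10 with quantile normalization. Only 16 of the 30 were called in the same direction without the filter on low values. The lists were drawn up with earlier results of these libraries known, and the fit gives the single control the spread of the romidepsin pair.

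The thioredoxin system, which TXNIP is named for, was lower in 3 of 4 genes and higher in none as deposited. Over all genes, 41.8% were called lower and 34.7% higher. TXN2, the mitochondrial thioredoxin, fell to 76.3 and 76.4 FPKM in the romidepsin libraries, against 115 FPKM in the control (limma adjusted p = 5.16e-06). TXN, the cytosolic thioredoxin that TXNIP binds, is named here after its values were seen: it was at 500 and 511 FPKM after romidepsin and 696 FPKM in the control (limma adjusted p = 1.05e-05, but 0.0512 with no filter). The size of both differences depended on the scale: the log2 difference of TXN was -0.46 as deposited, -0.22 with equal-sum scaling and -0.07 with quantile normalization, and that of TXN2 was -0.59, -0.35 and -0.34. TXNRD2 also fell, by 0.59 on the log2 scale, but was not called without the filter (adjusted p = 0.1). TXNRD1, the cytosolic reductase, was at 78.7 and 78.0 FPKM after romidepsin and 82.8 FPKM in the control (limma adjusted p = 0.0797) and was called higher under equal-sum scaling (log2 difference 0.16) and quantile normalization (0.15). Set per length, TXN exceeded TXNIP in every library, by 5.14 and 5.28 times after romidepsin and 33.0 times in the control.

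Genes of glucose uptake and hexose phosphate handling, which lie upstream of MondoA, changed in both directions: 2 of 7 rose and 5 fell. The shares over all genes were 34.7% called higher and 41.8% lower. SLC2A3, which encodes the glucose transporter GLUT3, rose to 61.4 and 62.0 FPKM in the romidepsin libraries, against 12.6 FPKM in the control (4.89-fold, limma adjusted p = 6.01e-08). SLC2A1, which encodes the transporter GLUT1 that TXNIP removes from the surface, went the other way, at 10.5 and 11.0 FPKM after romidepsin and 15.9 FPKM in the control (limma adjusted p = 0.000101, but 0.061 with no filter); it too is named after its values were seen. HK1, a hexokinase, rose 1.62-fold, to 70.1 and 70.2 FPKM after romidepsin against 43.3 FPKM in the control, while GPI, which passes glucose 6-phosphate on to glycolysis, fell 1.59-fold. HK3, another hexokinase, fell to 8.61 and 9.03 FPKM after romidepsin, against 14.5 FPKM in the control (limma adjusted p = 4.13e-05). HK2 and G6PC3 made up the rest of the falls. Without the filter HK3 (adjusted p = 0.0579) and G6PC3 (0.133) were not called, nor was G6PC3 under equal-sum scaling (0.0614).

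**Figure D4:**
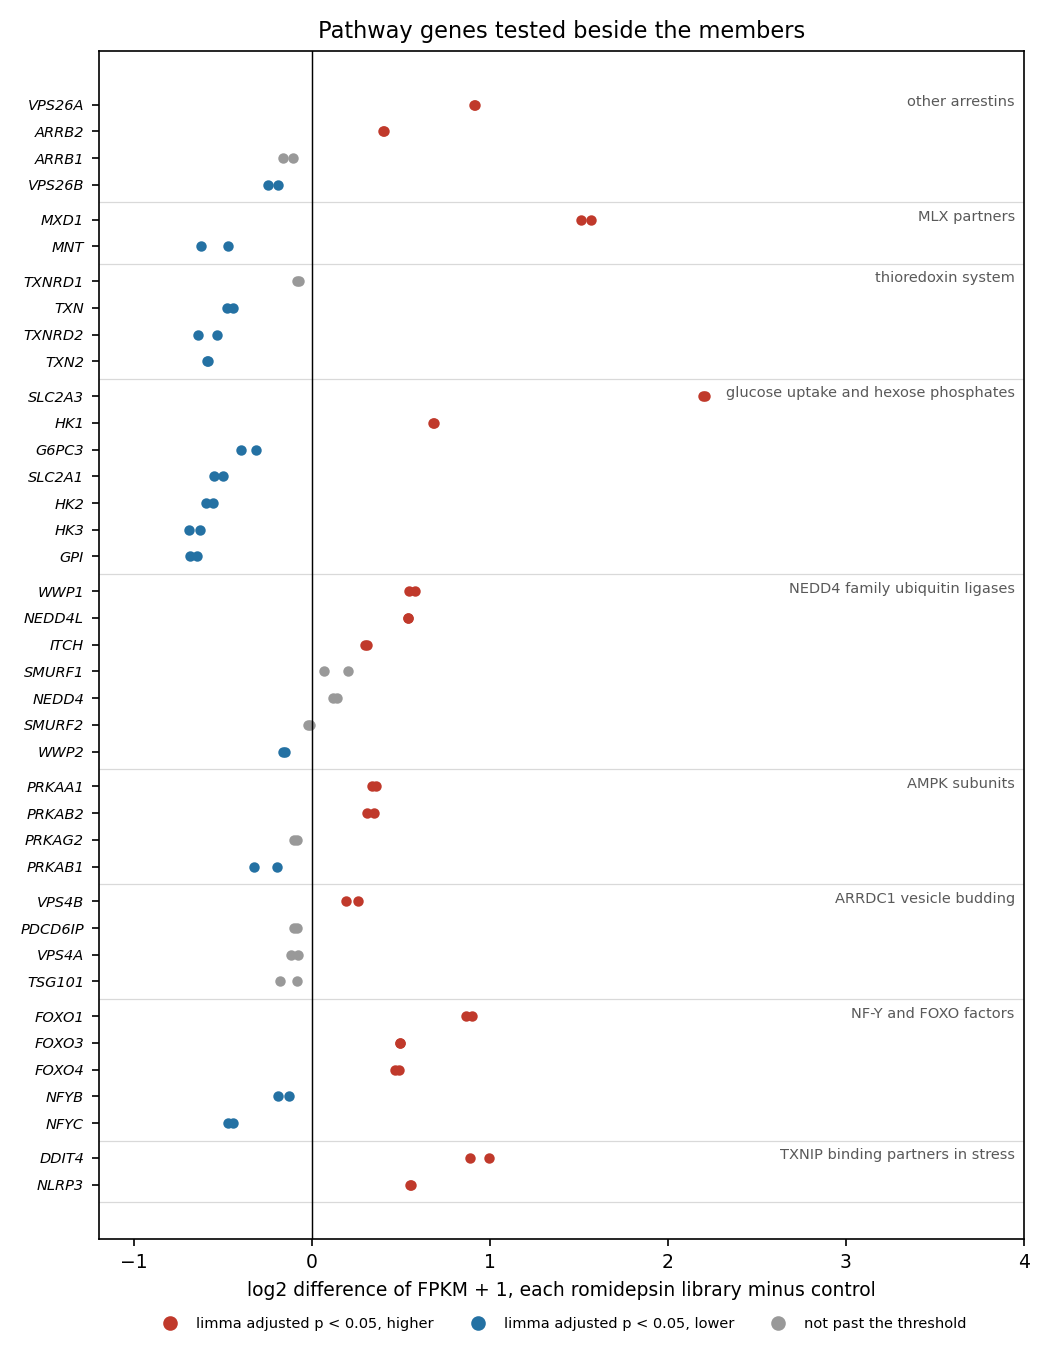
Differences of log2(FPKM + 1) of each romidepsin library from the control for the 39 tested pathway genes, grouped by list; each gene has 1 point per romidepsin library, coloured by the limma call. SLC2A3 and MXD1 lie farthest to the right, and 3 of 4 thioredoxin genes are called lower, beside 41.8% of all genes.

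Of the other partners of MLX, MXD1 rose and MNT fell, beside 34.7% of all genes called higher and 41.8% lower. MXD1, a repressor of the MYC network, reached 8.85 and 9.21 FPKM in the romidepsin libraries, against 2.45 FPKM in the control (limma adjusted p = 1.61e-06). MNT was at 3.93 and 4.48 FPKM after romidepsin and 6.60 FPKM in the control, and was not called without the filter (adjusted p = 0.164). MXD4 had no row of its own; its joint row with MIR4800 was at 8.12 and 7.72 FPKM after romidepsin and 7.51 FPKM in the control. Among other genes of arrestin fold, 2 of 4 tested rose and 1 fell, beside 34.7% of all genes called higher and 41.8% lower. The fall (VPS26B) was lost with both scalings and with no filter. VPS26A, a retromer subunit, rose 1.91-fold, to 58.7 and 58.4 FPKM after romidepsin against 30.6 FPKM in the control. ARRB2, which encodes beta-arrestin 2, was at 87.8 and 88.4 FPKM after romidepsin and 66.4 FPKM in the control. ARRDC5, a further alpha-arrestin, stayed under 1 FPKM in every library.

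Of the ubiquitin ligases that alpha-arrestins recruit, 3 of 7 rose and 1 (WWP2) fell, beside 34.7% of all genes called higher and 41.8% lower. Equal-sum scaling called 5 of the 7 higher and none lower, beside 5738 of all 11734 genes tested there called higher and 3061 lower. WWP2 was at 0.07 instead of -0.16 on the log2 scale under equal-sum scaling. WWP2 was not called there (limma adjusted p = 0.24), with quantile normalization (0.0907) or without the filter (0.0723). WWP1 rose to 13.2 and 13.5 FPKM after romidepsin, against 8.73 FPKM in the control (limma adjusted p = 6.52e-05). NEDD4L rose to 4.68 FPKM in both romidepsin libraries, against 2.91 FPKM in the control, but was not called without the filter (adjusted p = 0.0698). ITCH, the ligase known to degrade TXNIP, was at 10.8 and 10.9 FPKM after romidepsin and 8.57 FPKM in the control (limma adjusted p = 0.00205). In the machinery through which ARRDC1 buds vesicles, 1 of 4 genes was called as deposited, beside the same 34.7% and 41.8% of all genes. With equal-sum scaling 3 of 4 were called, all higher (VPS4B, VPS4A and PDCD6IP), beside 5738 of 11734 genes called higher. VPS4A and PDCD6IP were at log2 differences of 0.13 and 0.14 there, under the median of all genes (0.16). VPS4B, at 0.46, lay above it. VPS4B was at 34.0 and 32.4 FPKM after romidepsin and 28.3 FPKM in the control, higher by limma (adjusted p = 0.00352) but not without the filter (adjusted p = 0.168). TSG101 was at 31.3 and 33.5 FPKM after romidepsin and 35.6 FPKM in the control (limma adjusted p = 0.052).

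Of the AMPK subunits, a kinase that marks TXNIP for degradation, 2 of 4 rose and 1 fell. Here too the shares over all genes were 34.7% higher and 41.8% lower. PRKAA1 was at 23.6 and 23.9 FPKM after romidepsin and 18.5 FPKM in the control (limma adjusted p = 0.000318). PRKAB2 was at 3.67 and 3.79 FPKM after romidepsin and 2.77 FPKM in the control, and was not called under quantile normalization (adjusted p = 0.3) or without the filter (0.152). The fall of PRKAB1 did not pass under equal-sum scaling (adjusted p = 0.646) or without the filter (0.296). Among the NF-Y and FOXO factors, known as regulators of TXNIP, the 3 FOXO genes tested rose and NFYB and NFYC fell. The shares of all genes called were again 34.7% higher and 41.8% lower. NFYA had no row of its own. Its joint row with ADCY10P1 was at 16.42 and 16.15 FPKM after romidepsin and 17.75 FPKM in the control, and was not called. FOXO1 was at 1.17 and 1.12 FPKM after romidepsin and 0.162 FPKM in the control; it entered the test only by its romidepsin values and was not called under quantile normalization (adjusted p = 0.192). NFYC was at 17.1 and 16.8 FPKM after romidepsin and 23.6 FPKM in the control (limma adjusted p = 9.19e-05), while NFYB was at 0.06 instead of -0.16 on the log2 scale under equal-sum scaling. NFYB was called under neither scaling (limma adjusted p = 0.372 with equal sums and 0.0751 with quantile normalization), nor without the filter (0.218). DDIT4 and NLRP3, stress genes whose proteins bind TXNIP, both rose, beside the same 34.7% of all genes called higher. DDIT4 reached 31.6 and 34.2 FPKM after romidepsin, against 16.6 FPKM in the control (limma adjusted p = 5.15e-06, but 0.0648 with no filter), and NLRP3 76.0 and 76.3 FPKM against 51.7 FPKM in the control.

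The libraries held a summed FPKM of 668773 and 657213 after romidepsin and 790922 in the control. The steps between low values put the depth at about 24800000 and 24200000 fragments after romidepsin and 21300000 in the control, an approximation that rests on gene lengths of another build. All 7 myeloid markers checked (PTPRC, CD33, ANPEP, MPO, LYZ, SPI1 and CSF1R) reached 1 FPKM in at least 1 library, with a sum of 3330 and 3277 FPKM after romidepsin and 5332 FPKM in the control. LYZ, MPO, SPI1 and CD33 were lower in both romidepsin libraries than in the control, while PTPRC, CSF1R and ANPEP were higher, ANPEP at 5.40 and 5.24 FPKM after romidepsin and 0.654 FPKM in the control. Markers of other cells were low. The 3 fibroblast markers summed to 3.79 FPKM in both romidepsin libraries and 0.0525 FPKM in the control, with COL1A2 at 0 throughout; the 3 B cell markers to 2.17 and 2.28 FPKM after romidepsin and 0.843 FPKM in the control, with MS4A1 at 0 throughout. The 3 T cell markers summed to 1.003 and 1.01 FPKM after romidepsin and 0.216 FPKM in the control, the epithelial ones to 0.0196 and 0.0764 FPKM after romidepsin and 0 in the control, and the erythroid ones were at 0. Their part in the differences above was not tested, and in bulk RNA fewer cells of a type and less RNA per cell cannot be told apart.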

How the data were processed

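Per the file headers, the authors deposited FPKM values, 1 table of 28837 rows for each library. The submitters' processing notes list the build hg19 and the tools TopHat, Cufflinks and Cuffdiff; no source used here gives versions, annotation or strand setting. Depth and its precision are approximate for this reason.

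From these values, rows of the same symbol were summed. The 1770 unnamed rows (22.1% and 21.1% of the summed FPKM after romidepsin, 22.3% in the control) and 27 rows named by a number were left out. Genes at 1 FPKM or more in at least 1 library were compared on log2(FPKM + 1) with limma 3.58.1 in R 4.3.3 (mean-variance trend, Benjamini-Hochberg adjustment over 11708 genes, threshold 0.05, 1 residual and 6.06 prior degrees of freedom). The procedure was also run on simulated data that gave the control the spread of the romidepsin pair. That run therefore does not check whether the real control has this spread. Python 3.11.15, numpy 2.4.6, pandas 2.3.3, scipy 1.17.1 and matplotlib 3.10.9 were used otherwise. Depth came from steps between low FPKM of genes with a single GENCODE transcript, less 200 bases for fragment length; intervals and depths cover counting error only.

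Members, lists and tests were chosen with earlier results of these data known. Named by rule were the 7 members and the 5 genes nearest to TXNIP. So were the pathway genes past the threshold and 1.5-fold in both romidepsin libraries (at most 4 a list, otherwise the 2 with the largest called difference). Other genes were named outside this rule, among them TXN, SLC2A1, ITCH, ARRB2, NFYC, NLRP3 and TSG101. 1 listed gene is not reported here and is left out of the pathway counts. Protein motifs, planned at the outset, were not analysed here. The alternatives were 2 other scalings, another pseudocount, other filters, unjoined rows, no variance trend and leaving out each romidepsin library.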

Additional observations from a re-analysis of the deposited data

How the results depend on the processing

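The number of members at least 2-fold higher was 1 under each scaling and filter and 2 with a pseudocount of 0.1, and none was 2-fold lower under any alternative run. The log2 differences that changed sign were those of ARRDC2 (0.11) and MLXIP (0.17), both with equal-sum scaling; the cause was not tested. Of 18 log2 differences of the members recomputed with another scaling or pseudocount, 6 moved by less than the SD of the romidepsin pair, and 12 moved by more or changed sign. Without the filter on low values, 2047 genes were called higher instead of 4057, 2088 lower instead of 4896, and 6 pathway genes lower instead of 14, with 25247 genes tested. Equal-sum scaling called 3061 genes and 9 pathway genes lower, and made 65.2% of all calls higher, against 45.3% as deposited. Of 95 recomputed values for the 14 pathway genes picked by the naming rule, 88 kept their direction and side of the threshold and 7 lost the call. That rule favours large differences. Of all 30 pathway calls, 16 held without the filter, 25 with equal-sum scaling and 25 with quantile normalization. No paired analysis was possible because the control has a single library without a replicate number. Leaving out either romidepsin library leaves no residual spread, so it gave values and no test, and the control could not be left out. The depth is approximate, and the intervals given for ARRDC3 rest on it.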

Other observations

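Besides TXNIP, 19 genes had a RefSeq promoter window with the paired motif (CACGNG, any 5 bases, CACGNG, either strand). Of the 19, 11 were tested under the same symbol. Symbols were matched as written, so a gene listed under an older symbol or in a joint row was not counted. Of these 11, 4 were higher and 7 lower in the romidepsin libraries than in the control, with a median log2 difference of -0.38, against -0.05 over all genes tested. RCN3, which encodes a calcium-binding protein of the endoplasmic reticulum, was the only one of the 11 at least 2-fold higher, at 7.86 and 9.14 FPKM after romidepsin and 0.818 FPKM in the control; it entered the test only by its romidepsin values. GFPT1, the first enzyme of the hexosamine pathway, which uses fructose 6-phosphate, was at 8.38 and 8.64 FPKM after romidepsin and 5.50 FPKM in the control. KCTD5 was at 33.3 and 34.7 FPKM after romidepsin and 17.04 FPKM in the control, and RAN, a nuclear transport GTPase, at 250 and 253 FPKM after romidepsin and 381 FPKM in the control. Genes with this motif stood on both sides of 0, and these genes were looked up after the values of TXNIP were known.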
